A study of Mus musculus with 24 samples.

Results

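Interferon beta and 4 chemokines that interferons induce were followed across every array of an experiment on mechanically loaded bone cells. The 5 genes were Ifnb1, Cxcl10, Cxcl11, Cxcl9 and Ccl5, out of 12393 genes measured, and they were read by 6 of the 22690 probe sets, those whose platform annotation gave the symbol of one of these genes and no other. They were picked because earlier readings of these same arrays had drawn attention to them, so their levels and differences are given as a description and without a test. The cells were MLO-Y4, a mouse line with features of osteocytes, the cells embedded in bone matrix that sense loading, and the labels give the strain as a mix of C57B1/6, BALB/c and DBA2. Cells in the flow groups were exposed for 2 h to fluid that oscillated at 1 Hz and reached a shear stress of 10 dyn/cm2 at its peak, and cells in the sham groups stayed for the same 2 h in chambers without flow. Flow and sham cells were collected 0, 2, 8 and 24 h afterwards, with 3 arrays for each of the 8 labels. All arrays share the one cell line, and the labels give no difference in genotype between the groups. The sources used here speak of triplicates and of paired static controls. They do not say whether the 3 arrays of a label came from separate cultures or which control belongs to which flow sample. Counts of genes that pass a test therefore rest on the spread of arrays within a label, and that spread may be technical.

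Interferon beta is the type I interferon that non-immune cells make first when sensors of foreign or misplaced nucleic acid are triggered. Its gene, Ifnb1, is known for an enhancer at which interferon regulatory factors, NF-kB and AP-1 act together, and the secreted protein acts back on the cell and its neighbours through the receptor encoded by Ifnar1 and Ifnar2. Cxcl9, Cxcl10 and Cxcl11 encode chemokines that share the receptor Cxcr3 on activated T cells and natural killer cells. Cxcl9 is known as the one that depends most on interferon gamma, whereas Cxcl10 and Cxcl11 also respond to type I interferon and to NF-kB. Ccl5 encodes the chemokine RANTES, which attracts T cells and monocytes and is also induced by both NF-kB and interferon regulatory factors.

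Letters of such binding sites can be read in the sequence before the genes. Of the 5 genes, 3 were found in the promoter table used here, taken from RefSeq on build GRCm38.p6. The 250 bases before the annotated start of each of these are shown. A link between the letters and the levels of the genes was not tested. All lie on the minus strand, Ifnb1 at chr4:88522795-88523044, Cxcl10 at chr5:92348890-92349139 and Cxcl9 at chr5:92328080-92328329. Capitals mark matches, on either strand, to the letters AANNGAAA of interferon regulatory factors (IRF) and to the letters of NF-kB, which are GGG, any 3 bases and TTCC.
Ifnb1: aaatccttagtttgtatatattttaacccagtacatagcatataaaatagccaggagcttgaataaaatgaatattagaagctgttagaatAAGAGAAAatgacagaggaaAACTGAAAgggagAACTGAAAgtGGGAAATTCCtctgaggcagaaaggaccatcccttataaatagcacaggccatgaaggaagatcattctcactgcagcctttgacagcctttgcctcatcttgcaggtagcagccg
Cxcl10: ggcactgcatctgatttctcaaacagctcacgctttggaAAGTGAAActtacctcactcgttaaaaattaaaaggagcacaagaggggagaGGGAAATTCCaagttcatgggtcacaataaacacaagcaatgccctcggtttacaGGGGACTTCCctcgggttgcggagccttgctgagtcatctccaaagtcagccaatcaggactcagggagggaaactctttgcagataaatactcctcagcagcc
Cxcl9: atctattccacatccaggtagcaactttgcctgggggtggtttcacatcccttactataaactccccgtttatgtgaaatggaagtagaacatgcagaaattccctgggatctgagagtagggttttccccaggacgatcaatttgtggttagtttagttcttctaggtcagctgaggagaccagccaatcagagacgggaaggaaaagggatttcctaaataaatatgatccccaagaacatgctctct

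The Ifnb1 window held 3 IRF matches, which began at -159, -139 and -126, counted back from the start, followed by 1 NF-kB match that began at -116. The Cxcl10 window held 1 IRF match at -211 and 2 NF-kB matches at -159 and -104. The IRF match of Cxcl10 lay inside a match to the longer interferon-stimulated response element, which is GAAA, any 2 bases and GAAA, and 1 match to the AP-1 letters TGANTCA began at -74. The Cxcl9 window held no match to IRF, the response element, NF-kB or AP-1, and 1 match to the TATA letters TATAAA at -195. The Ifnb1 window held 2 TATA matches, at -210 and -82, and no match to the response element or AP-1. Among the windows of the same length of 32851 genes, 21.3% held the IRF letters, 2.98% the response element, 4.65% the NF-kB letters, 6.75% the AP-1 letters and 12.4% the TATA letters. Both IRF and NF-kB letters, as in Ifnb1 and Cxcl10, were found in 0.846%. A match is only a match of letters, and the arrays did not measure binding. Other forms of these sites and sites of other factors were not searched, so a window without a match may still hold such sites.

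Before the levels are given, the arrays themselves need a description, because arrays with 1 label did not always lie together. The deposited table gives the columns by time, with the 3 sham arrays of a time before its 3 flow arrays. For 22 of the 24 arrays the most similar array was the other one of its pair of neighbouring columns, and 8 of these 12 pairs carry 1 label. The other 4 pairs each join sham replicate 3 and flow replicate 1 of the same time. Labels were taken as given, and no array was moved to another group. Whether the titles belong to the columns they stand over was not tested, and every flow minus sham value given here holds only if they do. At the threshold used here, a limma adjusted p under 0.05, flow and sham differed for 0 of 12393 genes at every time, which is 0%. The count was 2330, 2312, 3151 and 2361 at 0, 2, 8 and 24 h when limma weighted the arrays, and leaving out 1 array gave up to 1, 117, 672 and 278. At an unadjusted p under 0.05, limma gave 8.42% of the genes as higher and 5.53% as lower under flow at 0 h, 5.99% and 7.58% at 2 h, 6.63% and 7.74% at 8 h, and 9.8% and 5.7% at 24 h. Markers fitted the labelled cell type in part. Of 11 measured markers of osteocytes and osteoblasts, Phex, Pdpn, Gja1, Cd44 and Col1a1 lay at log2 values of 6 or more on all 24 arrays, while the osteocyte genes Dmp1, Mepe, Sost and Fgf23 and the osteoblast genes Alpl and Sp7 lay below 6 on all of them.

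Ifnb1 had the highest mean on the arrays labelled flow 2 h and differed widely between arrays of 1 label. At 2 h its log2 values, on the RMA scale, were 8.80, 8.24 and 9.00 in flow cells, against 5.69, 5.58 and 8.67 in sham cells. Sham replicate 3 thus lay among the flow arrays, and the groups overlapped although the other 2 sham arrays lay far below. Flow minus sham was 2.04 (standard error 0.70), and without sham replicate 3 it was 3.05. At 24 h the values were 7.59, 5.71 and 5.55 in flow cells, against 8.33, 8.41 and 7.58 in sham cells. Here flow replicate 1 reached the lowest sham array and the other 2 flow arrays were low, a difference of -1.82, or -2.47 without flow replicate 1. The groups overlapped by the width of 0.02 that separates flow replicate 1 from sham replicate 3.

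At 0 h Ifnb1 was at 8.13, 6.65 and 6.92 in flow cells, against 8.34, 8.23 and 7.37 in sham cells, a difference of -0.74, which was -1.19 without flow replicate 1 and -0.45 without flow replicate 2. Flow replicate 1 lay between the sham arrays, and the other 2 flow arrays lay below all of them. At 8 h it was at 5.42, 7.56 and 7.48 in flow cells, against 6.31, 6.52 and 5.74 in sham cells. The lowest of all 6 arrays was a flow array and the highest were flow arrays too, and the difference of 0.63 became 1.33 without flow replicate 1 and 0.26 without flow replicate 2. Ordered by their means, the labels ran from flow 2 h (8.68 ± 0.39, SD, n = 3) through sham 24 h (8.10 ± 0.46), sham 0 h (7.98 ± 0.53), flow 0 h (7.24 ± 0.79), flow 8 h (6.82 ± 1.21), sham 2 h (6.65 ± 1.75) and flow 24 h (6.28 ± 1.14) to sham 8 h (6.19 ± 0.41). The arrays of each label overlapped with those of the next in this order. Ifnb1 reached a log2 value of 6, the limit used here for dim genes, on 18 of the 24 arrays.

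Cxcl10, which lies next to Cxcl11 on chromosome 5, varied over a narrower range than Ifnb1 and also had its highest mean at flow 2 h. At 2 h its log2 values were 13.12, 12.94 and 13.14 in flow cells, against 12.46, 12.37 and 12.97 in sham cells. As for Ifnb1, sham replicate 3 was high and lay above flow replicate 2, so that the groups overlapped. The difference was 0.46 (standard error 0.19), and 0.65 without that array. At 24 h Cxcl10 was at 13.06, 12.41 and 12.39 in flow cells, against 12.94, 12.97 and 12.94 in sham cells. The sham arrays lay close together, and flow replicate 1 lay above them while replicates 2 and 3 lay below, a difference of -0.33, which was -0.55 without flow replicate 1 and -0.22 without flow replicate 3.

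At 0 h Cxcl10 was at 12.86, 12.74 and 12.90 in flow cells, against 12.76, 13.07 and 12.58 in sham cells, and at 8 h at 12.04, 12.44 and 12.57 in flow cells, against 11.98, 12.46 and 12.50 in sham cells. The groups overlapped at both times, and the difference was 0.03 at each. With 1 array left out it ran from -0.08 to 0.17 at 0 h and from -0.14 to 0.19 at 8 h. By its mean, flow 2 h (13.06 ± 0.11, SD, n = 3) came before sham 24 h (12.95 ± 0.02) and flow 0 h (12.84 ± 0.08), and flow 8 h (12.35 ± 0.28) and sham 8 h (12.31 ± 0.29) came last. Neighbours in this order overlapped, except that all 3 arrays of sham 24 h lay above those of flow 0 h.

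Cxcl11 is the member of the trio whose gene RefSeq lists as a transcribed pseudogene in the reference mouse, and it was read by 2 probe sets. With the brighter probe set the log2 values at 2 h were 8.59, 9.11 and 9.46 in flow cells, against 7.10, 6.84 and 8.85 in sham cells. The array labelled sham replicate 3 again stood apart from the other 2 sham arrays and lay within the flow range. The difference was 1.45 (standard error 0.44), and 2.08 without it. At 24 h the values were 9.01, 7.43 and 7.26 in flow cells, against 8.38, 8.20 and 8.88 in sham cells. Flow replicate 1 was the highest of these 6 arrays and flow replicates 2 and 3 were the lowest. The difference was -0.59, and it was -1.15 without flow replicate 1 and -0.27 without flow replicate 3.

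At 0 h Cxcl11 was at 8.60, 7.97 and 8.58 in flow cells, against 8.20, 8.27 and 8.41 in sham cells, a difference of 0.09. At 8 h it was at 7.20, 7.90 and 7.77 in flow cells, against 7.66, 8.12 and 7.34 in sham cells, a difference of -0.08. The groups overlapped at both times, and with 1 array left out the difference ran from -0.02 to 0.30 at 0 h and from -0.27 to 0.13 at 8 h. The highest mean was that of flow 2 h (9.05 ± 0.44, SD, n = 3), followed by sham 24 h (8.49 ± 0.35), and the lowest that of sham 2 h (7.60 ± 1.10), and all neighbours in the order overlapped. The second probe set ran from 2.93 to 5.05, below 6 on all 24 arrays. It correlated with the first at r = 0.82 over the 24 arrays, and gave differences of 0.13, 0.97, 0.21 and -0.60 at 0, 2, 8 and 24 h. At 24 h its values were 3.77, 3.14 and 3.22 in flow cells, against 4.06, 3.83 and 4.03 in sham cells, so that the highest flow array was under the lowest sham array there, whereas with the first probe set they overlapped. At 8 h the signs of the probe sets differed.

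Cxcl9, the chemokine known for its dependence on interferon gamma, had another order of labels, with its highest mean at flow 24 h. At 24 h its log2 values were 10.49, 9.85 and 9.90 in flow cells, against 8.78, 8.75 and 10.31 in sham cells. Sham replicate 3 lay above 2 of the flow arrays, and the other 2 sham arrays lay below all of them. The difference was 0.80 (standard error 0.34), and it was 1.32 without sham replicate 3 and 0.53 without sham replicate 2. At 0 h the values were 9.20, 9.77 and 10.20 in flow cells, against 9.06, 9.15 and 8.96 in sham cells. All flow arrays lay above all sham arrays, a difference of 0.66, and flow replicate 1 was close to the sham arrays. The difference was 0.92 without flow replicate 1 and 0.42 without flow replicate 3.

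At 2 h Cxcl9 was at 9.43, 9.92 and 10.22 in flow cells, against 9.61, 9.47 and 9.67 in sham cells, a difference of 0.27, and flow replicate 1 lay below every sham array. The difference was 0.49 without flow replicate 1 and 0.09 without flow replicate 3. At 8 h it was at 9.45, 9.05 and 8.90 in flow cells, against 8.90, 9.24 and 9.92 in sham cells, a difference of -0.22 that became 0.06 without sham replicate 3 and -0.45 without sham replicate 1. By the means, flow 24 h (10.08 ± 0.35, SD, n = 3), flow 2 h (9.86 ± 0.40) and flow 0 h (9.72 ± 0.50) came first and sham 0 h (9.06 ± 0.09) last, and all neighbours overlapped.

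Ccl5 had the smallest spread within labels of the 5 genes, and it was the only one of them whose flow and sham arrays did not overlap at more than 1 time. At 0 h its log2 values were 12.69, 12.92 and 13.16 in flow cells, against 12.36, 12.40 and 12.47 in sham cells. At 2 h they were 12.79, 12.96 and 13.21 in flow cells, against 12.67, 12.73 and 12.77 in sham cells. All flow arrays were above all sham arrays at both times, with differences of 0.51 and 0.26 (standard error 0.15), but at 2 h flow replicate 1 and sham replicate 3 were only 0.02 apart, and the difference there was 0.15 without flow replicate 3. At 8 h the values were 12.34, 12.05 and 12.04 in flow cells, against 12.54, 12.75 and 12.51 in sham cells. There all flow arrays were below all sham arrays, a difference of -0.46.

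At 24 h Ccl5 was at 13.14, 12.74 and 12.76 in flow cells, against 12.40, 12.38 and 12.99 in sham cells. Sham replicate 3 lay between the flow arrays, and the difference of 0.29 became 0.49 without it and 0.16 without flow replicate 1. By the means, flow 2 h (12.99 ± 0.21, SD, n = 3), flow 0 h (12.92 ± 0.24) and flow 24 h (12.88 ± 0.23) came first. Flow 8 h (12.14 ± 0.17) came last and did not overlap with sham 0 h (12.41 ± 0.05) before it, and all other neighbours overlapped.

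**Figure D1:**
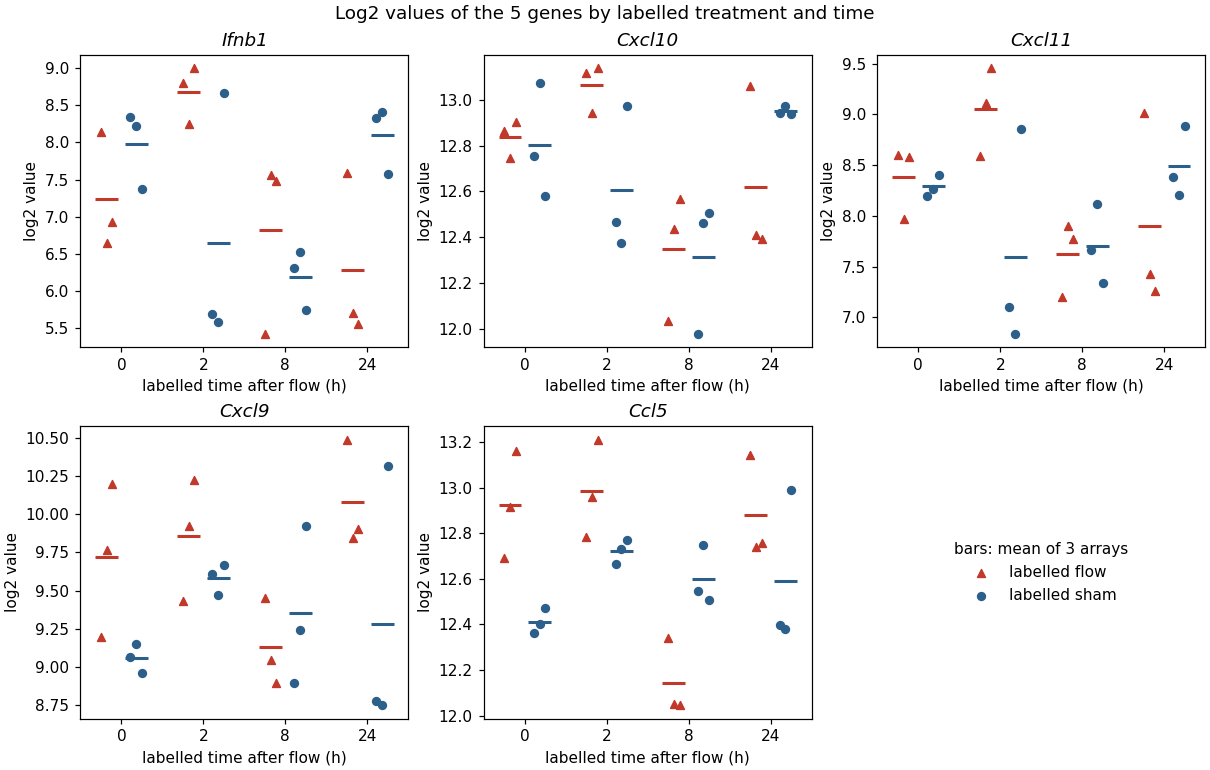
Log2 values of the 5 genes against the labelled time in hours, 1 panel a gene, with triangles for arrays labelled flow, circles for arrays labelled sham and bars for the mean of 3 arrays. For Ifnb1, Cxcl10 and Cxcl11 at 2 h, 1 sham array, at 8.67, 12.97 and 8.85, lies with the flow arrays, and for Ccl5 the flow arrays lie above the sham arrays at 0 and 2 h and below them at 8 h.

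The counts over the 5 genes have to be read against all genes. All flow arrays lay above all sham arrays for 2 of the 5 genes at 0 h (Cxcl9 and Ccl5), 1 at 2 h (Ccl5) and 0 at 8 and 24 h, where 11.1%, 9.16%, 7.05% and 13.5% of all genes did at these times. The opposite, every flow array below every sham array, was seen for 1 gene at 8 h (Ccl5) and for 0 at the other times, where 7.92%, 9.27%, 5.89% and 6.29% of all genes did at 0, 2, 8 and 24 h. A higher mean under flow was seen for 4, 5, 2 and 2 of the 5 genes at 0, 2, 8 and 24 h. The median of their differences was 0.09, 0.46, -0.08 and -0.33 at these times, against 0.01, 0.00, 0.01 and 0.01 over all genes. These genes were chosen on such values, and the counts say nothing further about them. Since RNA of whole cultures was measured, fewer cells that express a gene and less of its RNA per cell cannot be told apart.

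**Figure D2:**
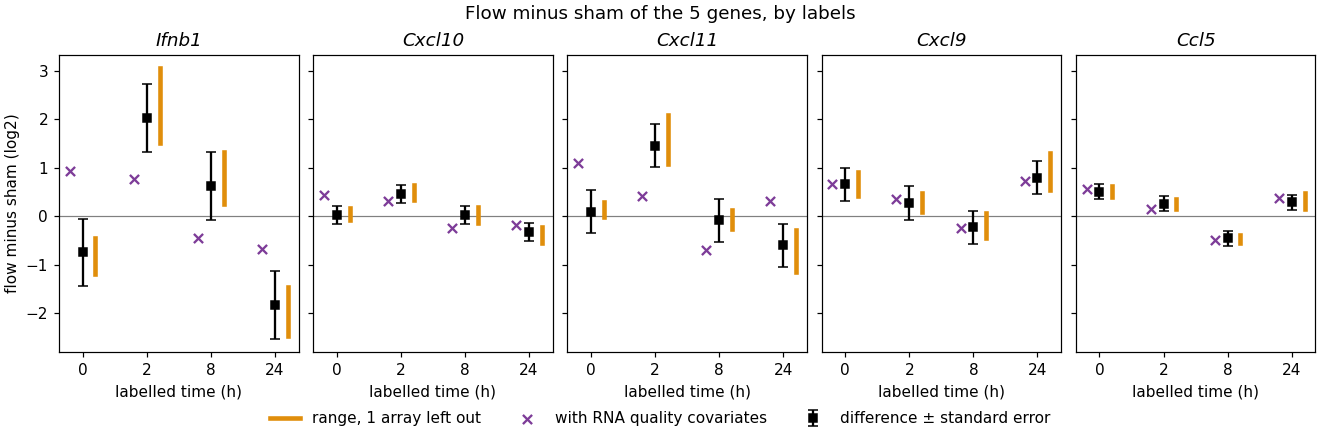
Flow minus sham of the 5 genes on the log2 scale against the labelled time in hours. Squares with bars give the difference ± its standard error, thick lines the range of the difference when 1 array is left out, and crosses the difference with RNA quality measures as covariates. At 2 h the range reaches 3.05 for Ifnb1, and at 0 h and 24 h the crosses of Cxcl11, at 1.11 and 0.33, lie above the whole range.

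In the order of the deposited columns the levels of the 5 genes came in pairs. Between the 12 pairs of neighbouring columns lay 97.8% of the sum of squares of Ifnb1, 85.0% of that of Cxcl10, 95.6% of Cxcl11, 93.4% of Cxcl9 and 94.3% of Ccl5, against 73.4% for the median gene. The largest difference within a pair was 0.76 for Ifnb1, 0.48 for Cxcl10, 0.61 for Cxcl11, 0.47 for Cxcl9 and 0.25 for Ccl5. Within the 4 pairs that join a flow array and a sham array, flow minus sham of Ifnb1 was 0.76, 0.13, -0.32 and 0.02 at 0, 2, 8 and 24 h. That of Cxcl10 was 0.28, 0.14, -0.47 and 0.12, that of Cxcl11 0.20, -0.27, -0.14 and 0.13, that of Cxcl9 0.23, -0.23, -0.47 and 0.17, and that of Ccl5 0.22, 0.02, -0.17 and 0.15. At 2 h the difference between neighbours of opposite label was thus far below the 2.04 between the labelled groups for Ifnb1 and of the other sign for Cxcl11 and Cxcl9. These are single arrays and allow no test.

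**Figure D3:**
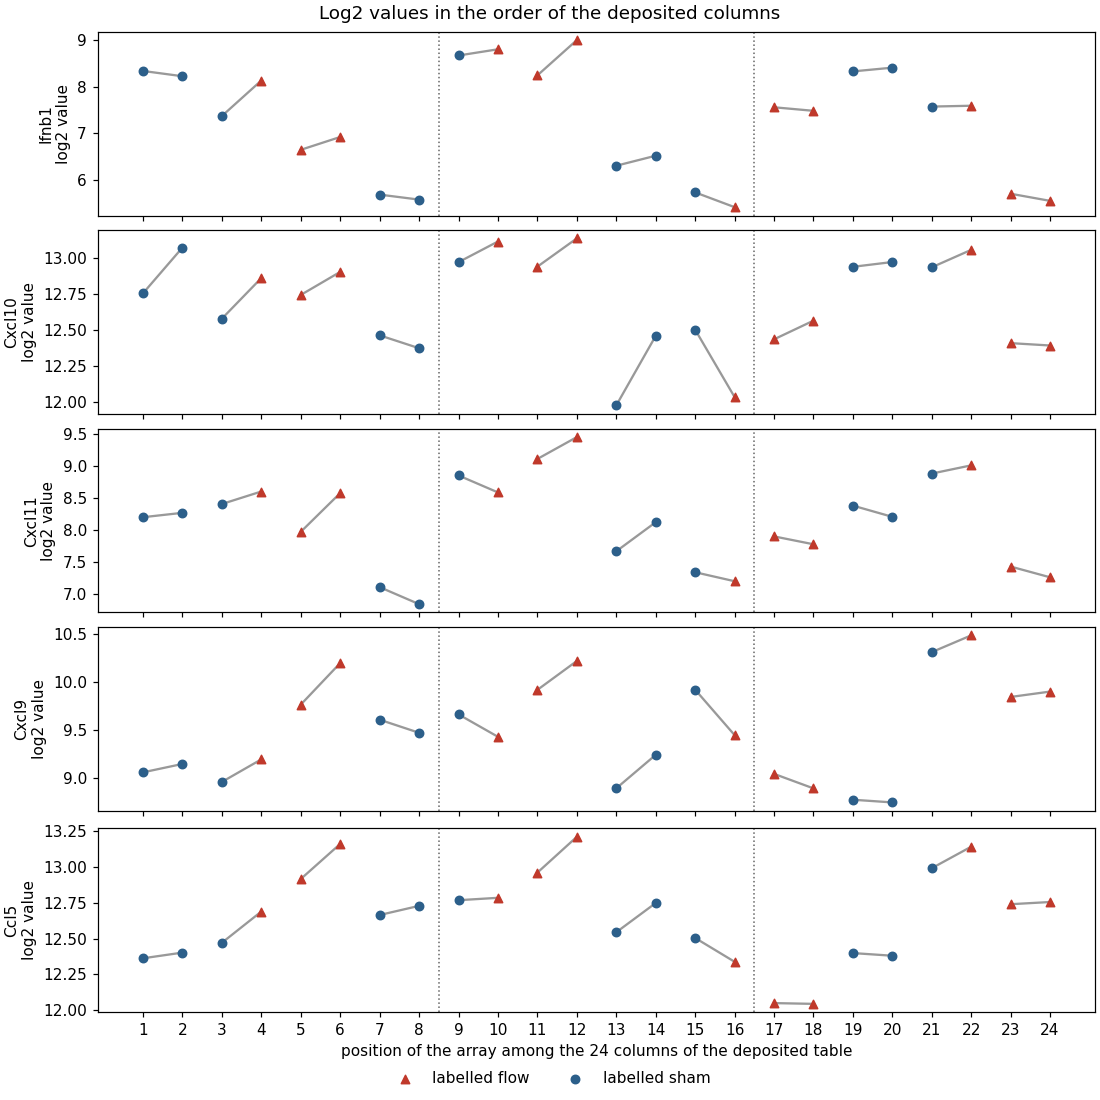
Log2 values of the 5 genes against the position of the array among the 24 columns of the deposited table, with triangles for arrays labelled flow and circles for arrays labelled sham. Grey lines join the 12 pairs of neighbouring columns and dotted lines separate blocks of 8 columns. Ifnb1 lies between 5.42 and 5.74 at positions 7, 8, 15, 16, 23 and 24, the last pair of each block.

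A second regularity in the column order was a repeat after 8 columns, and it was strongest for Ifnb1. Of its sum of squares 87.8% lay between the 8 sets of columns that are 8 apart, and 55.0% between the 8 labels. For Cxcl11 the shares were 70.5% and 48.9%, and for the median gene 47.9% and 41.3%. For the other chemokines the labels held more than the column sets, with 61.1% and 50.5% for Cxcl10, 44.6% and 29.9% for Cxcl9, and 72.2% and 38.7% for Ccl5. The 3 blocks of 8 columns held 0.662% for Ifnb1, 1.17% for Cxcl10, 3.16% for Cxcl11, 1.79% for Cxcl9 and 5.09% for Ccl5, against 6.45% for the median gene.

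On the 6 arrays at positions 7 and 8 of each block Ifnb1 ran from 5.42 to 5.74, on the 6 at positions 5 and 6 from 6.31 to 7.59, and on the 12 at positions 1 to 4 from 7.37 to 9.00. These positions were joined after the values were seen, and the first of these ranges does not touch the others. The 6 arrays at positions 7 and 8 carry 4 labels, being sham 2 h replicates 1 and 2, sham 8 h replicate 3, flow 8 h replicate 1 and flow 24 h replicates 2 and 3. Cxcl11 was also low there, from 6.84 to 7.43 against 7.66 to 9.46 on the other 18 arrays, without overlap. Cxcl10, at 12.04 to 12.50, Cxcl9, at 9.45 to 9.92, and Ccl5, at 12.34 to 12.76, overlapped with the other arrays. The 6 arrays are 3 labelled flow and 3 labelled sham, and the other arrays of the same 4 labels had Ifnb1 values of 6.31 or more, among them sham 2 h replicate 3 at 8.67 and flow 24 h replicate 1 at 7.59. The low values of Ifnb1 and Cxcl11 thus lay on arrays of both flow and sham labels, at positions chosen with the values known. The part of position, of label and time, or of RNA quality in them was not tested. What the position stands for is not given in the sources used here.

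Over all 24 arrays the 5 genes ran in 2 courses, but the place of Cxcl11 depended on the 6 arrays at positions 7 and 8. Ifnb1 correlated with Cxcl10 at r = 0.82 and with Cxcl11 at r = 0.84, and Cxcl10 with Cxcl11 at r = 0.81, over the 24 arrays. Cxcl9 correlated with Ccl5 at r = 0.82. Across these groups the values were lower, at -0.16 for Ifnb1 and Cxcl9, 0.06 for Ifnb1 and Ccl5, 0.26 for Cxcl10 and Cxcl9, 0.41 for Cxcl10 and Ccl5, 0.27 for Cxcl11 and Cxcl9, and 0.47 for Cxcl11 and Ccl5. After the mean of each label was taken away, r was 0.76 for Ifnb1 and Cxcl10, 0.79 for Ifnb1 and Cxcl11, 0.69 for Cxcl10 and Cxcl11, and 0.82 for Cxcl9 and Ccl5, so that arrays of 1 label varied along the same courses. Without the 6 arrays at positions 7 and 8, over 18 arrays, r was 0.74, 0.57, 0.74 and 0.89 for the same pairs, and it was 0.74 for Cxcl11 with either Cxcl9 or Ccl5. Cxcl11 thus ran as closely with Cxcl9 and Ccl5 there as with Cxcl10, and less closely with Ifnb1. Over these 18 arrays Cxcl10 correlated with Cxcl9 at 0.48 and with Ccl5 at 0.45, and Ifnb1 with them at 0.03 and 0.00. The correlations are descriptions, since the arrays were normalized together and neighbouring columns resembled each other.

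**Figure D4:**
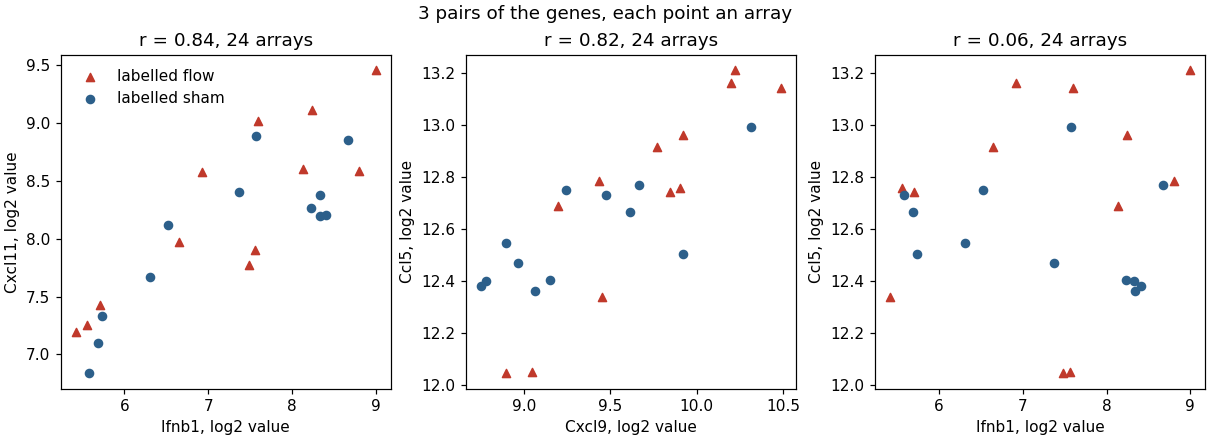
Log2 values of one gene against those of another for 3 pairs of the genes, each point 1 of 24 arrays, with triangles for arrays labelled flow and circles for arrays labelled sham. Ifnb1 and Cxcl11 (r = 0.84) and Cxcl9 and Ccl5 (r = 0.82) lie along a line, and Ifnb1 and Ccl5 (r = 0.06) do not.

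A measure of RNA quality moved with some of these levels. Beta-actin has control probe sets near either end of its transcript, and their log2 difference, 3′ minus 5′, correlated with Ifnb1 at r = -0.62 and with Cxcl11 at r = -0.65, and with Cxcl10 at -0.36, Cxcl9 at 0.15 and Ccl5 at -0.08, over 24 arrays. It lay from 0.138 to 0.168 on flow 2 h arrays and from 0.191 to 0.262 on sham 2 h arrays, and from 0.224 to 0.244 on flow 24 h arrays and from 0.150 to 0.203 on sham 24 h arrays. On the 6 arrays at positions 7 and 8 it lay from 0.224 to 0.262. The same measure for Gapdh lay from -0.196 to -0.154 on flow 2 h arrays and from -0.177 to -0.136 on sham 2 h arrays. At 24 h it lay from -0.189 to -0.101 under flow and from -0.172 to -0.133 under sham, so it overlapped at both times. It correlated with Ifnb1 at 0.31, Cxcl10 at 0.24, Cxcl11 at 0.12, Cxcl9 at -0.24 and Ccl5 at -0.39. With the beta-actin and Gapdh measures as covariates, flow minus sham of Ifnb1 was 0.95, 0.77, -0.44 and -0.67 at 0, 2, 8 and 24 h. That of Cxcl11 was 1.11, 0.42, -0.70 and 0.33, and that of Cxcl10 was 0.44, 0.32, -0.24 and -0.19. The sign of Ifnb1 thus turned at 0 and 8 h, that of Cxcl10 at 8 h and that of Cxcl11 at 24 h, while no sign turned for Cxcl9 or Ccl5. The part of RNA quality in these levels was not tested.

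The genes whose levels ran most like those of the set over the 24 arrays were then named by a rule on Pearson's r. With the mean of the 5 standardized profiles the highest values were those of Inpp1 and Psmb10 (r = 0.88 each), Slc15a3, Gbp2b and Slc7a2 (0.87 each), and Gbp2 (0.85). Psmb10 encodes a subunit of the immunoproteasome, and Gbp2 and Gbp2b encode guanylate binding proteins that interferons induce. The lowest were those of Ttc13 (-0.80), Elk3 (-0.78) and Rxra (-0.77). Next to Ifnb1 stood Ccl2, Ccl7 and Relb (r = 0.96 each), 2 chemokines that attract monocytes and a subunit of NF-kB. Next to Cxcl10 stood Tapbpl and Inpp1 (0.89 each) and Gbp2b (0.88), and next to Cxcl11 Vcam1 (0.92), an adhesion molecule, and Etv6 and Ttc39b (0.90 each). Next to Cxcl9 stood Plaat3 (0.94), H2-M3 (0.92), a class I histocompatibility molecule, and Cd47 (0.91), and next to Ccl5 Ece2 (0.92), Elp3 (0.90) and Manf (0.87). Without the 6 arrays at positions 7 and 8, r with Ifnb1 was 0.89 for Ccl2 and Ccl7 and 0.93 for Relb.

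**Figure D5:**
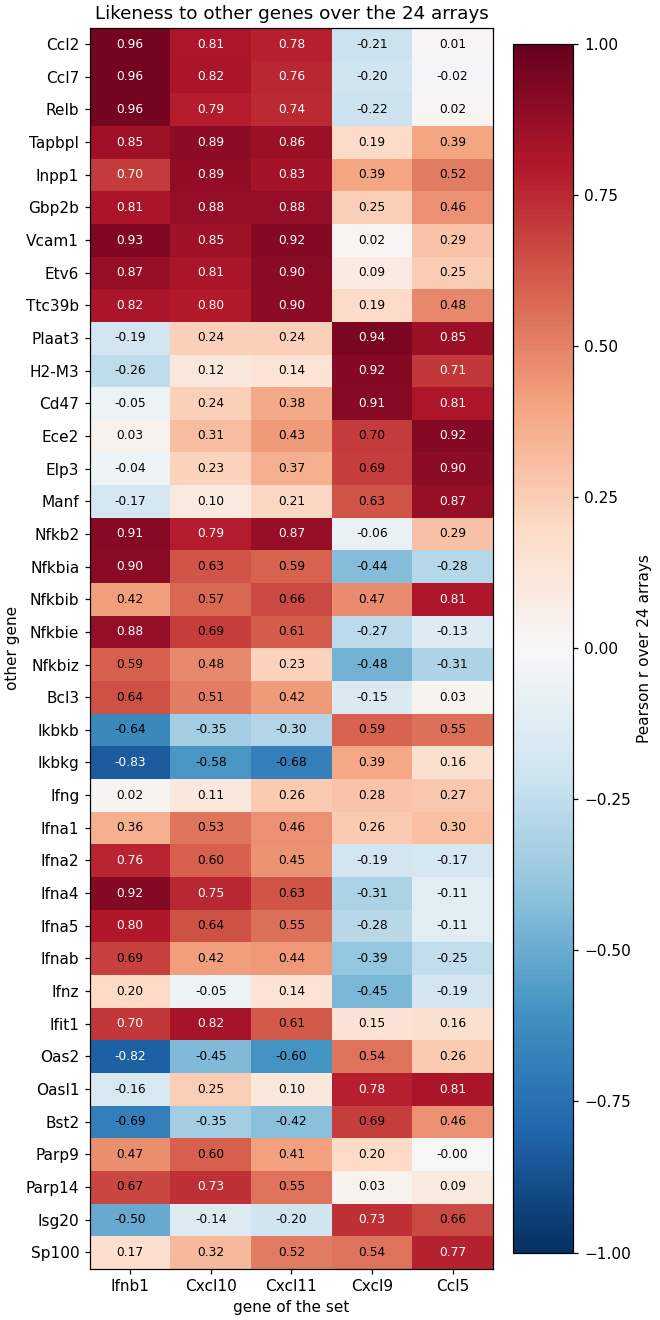
Pearson's r over 24 arrays between each of the 5 genes, in columns, and other genes, in rows, from red at 1 to blue at -1. The rows are the 3 genes most like each of the 5 and the named genes of 3 pathway lists, and the columns of Ifnb1, Cxcl10 and Cxcl11 differ from those of Cxcl9 and Ccl5, as for Relb at 0.96, 0.79 and 0.74 against -0.22 and 0.02.

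The pathway around Ifnb1 was read from 8 lists of genes, and 0 of their members reached a limma adjusted p under 0.05 at any time. The members with an unadjusted p under 0.05 are counted where they are given. Of 14 measured sensors and adaptors that lead to Ifnb1, 9, 5, 6 and 9 had a higher mean under flow at 0, 2, 8 and 24 h. Sting1, the adaptor for DNA in the cytosol, had differences of -0.52 at 2 h and 0.63 at 24 h and ran opposite to Ifnb1 over the arrays (r = -0.87). It lay at 7.93 to 8.23 on the 6 arrays at positions 7 and 8 and at 7.74 or less on the others, and these 6 include 2 of the 3 sham 2 h arrays and 2 of the 3 flow 24 h arrays. Of 8 measured factors of the Ifnb1 enhancer, 3, 5, 4 and 6 had a higher mean. Irf3, which is activated without new synthesis, lay between 8.07 and 8.72 on all arrays and correlated with Ifnb1 at -0.31. Irf7, the factor that interferon itself induces, had a difference of -0.27 at 2 h and 0.83 at 24 h, and correlated with Ifnb1 at -0.61 and with Cxcl9 at 0.72. Like Sting1 it stood apart on the 6 arrays at positions 7 and 8, at 11.17 to 11.53 against 11.13 or less on the others. The part of the positions in these differences was not tested. Irf1 correlated with Ifnb1 at 0.64.

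Several genes of the NF-kB list ran with Ifnb1 over the arrays. Of its 12 measured subunits, inhibitors and kinases, 4, 9, 8 and 2 had a higher mean under flow at 0, 2, 8 and 24 h, with medians of -0.24, 0.46, 0.17 and -0.32. At an unadjusted p under 0.05 in limma, 3 were higher and 1 lower at 2 h, where 5.99% and 7.58% of all genes were, and 1 higher and 4 lower at 24 h, where 9.8% and 5.7% of all genes were. Nfkb2, the precursor of p52, had a difference of 0.67 at 2 h and -0.45 at 24 h, and Relb, its partner, 0.66 and -0.58. Nfkbia, the inhibitor that NF-kB itself induces, had 0.74 and -0.98, and these 3 genes correlated with Ifnb1 at 0.91, 0.96 and 0.90. Ikbkg, the regulatory subunit of the kinase that frees NF-kB, ran the other way, with -0.45 at 2 h and 0.56 at 24 h (r = -0.83). On the arrays at positions 7 and 8, Nfkb2 lay at 7.40 to 7.57 and Nfkbia at 10.65 to 10.90, below all other arrays, which began at 7.79 and 11.10, and Ikbkg lay at 8.01 to 8.11, above all others, which ended at 7.75. The beta-actin measure of RNA quality also separated flow from sham at 2 and 24 h, while the Gapdh measure did not, as given above. The part of the positions or of RNA quality in these differences was not tested. The list was drawn up with results of these arrays known, and it is no independent evidence.

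The other interferons were mostly dim. Of 18 listed genes 9 were measured and 3 reached 6 in 3 or more arrays. At an unadjusted p under 0.05 in limma, 3 were higher and 0 lower at 2 h, where 5.99% and 7.58% of all genes were. At 24 h 0 were higher and 4 lower, where 9.8% and 5.7% of all genes were. Ifna4, an alpha interferon, ran from 4.63 to 6.90 and correlated with Ifnb1 at 0.92, with differences of 0.92 at 2 h and -1.24 at 24 h. It lay at 4.63 to 5.05 on the 6 arrays at positions 7 and 8, which include sham 2 h and flow 24 h arrays. At positions 5 and 6 it lay at 4.80 to 5.62, and at positions 1 to 4 at 5.32 to 6.90. The part of the positions or of RNA quality in its differences was not tested. Ifna2, from 5.08 to 6.37, correlated at 0.76, and Ifna5, from 4.40 to 5.25, at 0.80. Ifna1, from 5.54 to 5.95, correlated at 0.36, and Ifnz, the only one of those named here at 6 or more on all 24 arrays, from 6.24 to 7.10, at 0.20. Alpha interferon genes resemble each other in sequence, and cross-reaction of their probes was not tested. Ifng, which encodes interferon gamma, lay between 2.93 and 3.68, and its correlation with Cxcl9 was 0.28.

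Of 26 measured interferon-stimulated genes, 12, 16, 14 and 21 had a higher mean under flow at 0, 2, 8 and 24 h, with medians of -0.03, 0.05, 0.01 and 0.11. At an unadjusted p under 0.05 in limma, 0 were higher and 0 lower at 2 h, where 5.99% and 7.58% of all genes were, and 9 were higher and 0 lower at 24 h, where 9.8% and 5.7% of all genes were. Ifit1, which binds foreign RNA, lay at 12.11 to 12.85 and correlated with Cxcl10 at 0.82. Oas2, of the oligoadenylate synthetases, correlated with Ifnb1 at -0.82, with a difference of 0.34 at 24 h. Bst2, which tethers virus particles, had 0.30 at 24 h, and the antiviral exonuclease gene Isg20 had 0.55, and these correlated with Cxcl9 at 0.69 and 0.73. Oasl1 had a difference of 0.60 at 24 h and -0.41 at 8 h and correlated with Ccl5 at 0.81. Oas2, at 10.00 to 10.16, and Bst2, at 13.06 to 13.13, were higher on the 6 arrays at positions 7 and 8, which hold 2 of the 3 flow 24 h arrays, than on any other, where they ended at 9.97 and 13.00. The beta-actin measure lay from 0.224 to 0.244 on flow 24 h arrays and from 0.150 to 0.203 on sham 24 h arrays, and the Gapdh measure overlapped. The part of the positions or of RNA quality in the values at 24 h was not tested.

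Of 19 measured genes of the interferon gamma and Irf1 programme, 8, 12, 13 and 11 had a higher mean under flow at 0, 2, 8 and 24 h, with medians of -0.01, 0.04, 0.11 and 0.11. Psmb9, a subunit of the immunoproteasome, and Tap2, of the peptide transporter, had differences of 0.61 and 0.37 at 24 h and correlated with Cxcl9 at 0.81 and 0.76. Gbp2 had 0.26 at 2 h and correlated with Cxcl10 at 0.86. Of 11 measured genes of the type I interferon receptor and its signal, 3, 4, 6 and 7 had a higher mean. Ifnar1 lay between 8.01 and 8.37 on all arrays, with differences from -0.03 to 0.07, and Ifnar2 had differences of 0.34, -0.23, -0.22 and 0.39 at 0, 2, 8 and 24 h and correlated with Ifnb1 at -0.76. Ifnar2 lay at 10.40 to 10.48 on the 6 arrays at positions 7 and 8 and at 10.32 or less on the others. The part of the positions in its differences was not tested. The feedback inhibitors Socs1 and Socs3 had differences of 0.61 and 0.63 at 2 h.

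The receptors of the chemokines were low on these arrays. Cxcr3 lay between 4.62 and 5.17 and Ccr1 between 3.36 and 3.94, with flow minus sham between -0.14 and 0.14 for both at all times. Of 9 measured receptors, scavengers and binding partners, 2, 8, 7 and 2 had a higher mean under flow at 0, 2, 8 and 24 h. Ackr3, a scavenger of Cxcl11, had a difference of 0.73 at 2 h and -0.58 at 24 h, and correlated with Cxcl11 at 0.55. It lay at 8.92 to 9.49 on the 6 arrays at positions 7 and 8 and at 9.19 or more on the others. The part of the positions in its differences was not tested. Dpp4, the peptidase that trims these chemokines, lay below 6 on all arrays, at 3.55 to 4.33.

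Cells of the immune system also make these chemokines, and their markers were mostly dim. Of 11 measured markers of macrophages and dendritic cells, 1, Csf1r, reached a log2 value of 6 in 3 or more arrays, at 5.82 to 6.20, and Ptprc, the common leukocyte antigen, lay between 3.03 and 3.58. The mean log2 value of that list ran from 4.81 to 4.94 on flow 2 h arrays and from 4.80 to 4.91 on sham 2 h arrays, and from 4.95 to 5.01 on flow 24 h arrays and from 4.93 to 4.96 on sham 24 h arrays. At 0 h it ran from 4.84 to 4.93 under flow and from 4.79 to 4.87 under sham, and at 8 h from 4.85 to 4.89 under flow and from 4.83 to 4.94 under sham. Of 6 lymphocyte markers 2 reached 6 in 3 or more arrays, Cd4 at 6.57 to 7.02 and Cd3e at 5.90 to 6.34, while Cd3g lay between 3.27 and 3.80. The markers Cd3g, Cd8a, Cd79a and Nkg7 lay below 6 on all arrays. At 8 h all 6 had a higher mean under flow (median 0.18), and the mean log2 value of the list ran from 5.25 to 5.37 on flow arrays and from 5.11 to 5.19 on sham arrays, without overlap. By gene, all flow arrays lay above all sham arrays for 2 of the 6, and below them for 0. Of all genes 7.05% and 5.89% did so at 8 h. At 0 h it ran from 5.22 to 5.27 under flow and from 5.20 to 5.28 under sham, at 2 h from 5.14 to 5.35 under flow and from 5.09 to 5.23 under sham, and at 24 h from 5.10 to 5.37 under flow and from 5.23 to 5.29 under sham. The part of these markers in the levels of the 5 genes was not tested. Of 5 endothelial markers 1 reached 6 in 3 or more arrays, Kdr at 5.66 to 6.10.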

How the data were processed

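The authors deposited log2 expression values, and RMA is the tool named in the submitters' processing notes (its version is not given in the sources used here). RMA corrects background, sets all arrays to one distribution and summarises the probes of a probe set. The values of 24 arrays ran from 2.02 to 14.11, with array medians from 6.71 to 6.80, and were used as they are. They hold no counts, and 3 arrays a label limit the precision. Of 22690 probe sets, 20380 had 1 symbol in the platform annotation, 691 several and 1555 none, and 64 were controls. Symbols were matched through Entrez identifiers to a RefSeq table. A gene with several probe sets was represented by the one with the highest mean.

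Flow minus sham at each time came from a linear model with 1 mean a label over all arrays (limma 3.58.1, R 4.3.3), with Benjamini-Hochberg adjustment over 12393 genes. Standard errors are those of this model. The model was tested on simulated data in which the arrays varied independently of each other. That cannot show how the model behaves on the real arrays, where neighbouring columns resembled each other. The 5 genes, the lists and the rule for named genes were chosen with earlier results of these data known. The rule took, from each list, up to 4 genes with the smallest p at 2 h and up to 2 at each other time, a fixed set of interferon and NF-kB genes, and the genes most like the set in Pearson's r, and the text names some of these. Isg15 and Ddx58 are also in that set but were not read by a probe set with a single symbol, and are not reported. The alternatives were a replicate block, trend and robust moderation, array weights, renormalization, centring, RNA quality covariates, a filter on dim genes, the mean over a gene's probe sets, each probe set by itself, the 6 arrays of a time alone, another threshold, and each array left out.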

Additional observations from a re-analysis of the deposited data

Results flagged for a closer look

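Ccl5 had flow arrays that all lay on one side of the sham arrays at 3 times, and not always on the same side. Flow minus sham on the log2 scale was 0.51 at 0 h and 0.26 at 2 h, with every flow array above every sham array, and -0.46 at 8 h, with all 3 below. At 2 h the nearest flow and sham arrays were only 0.02 apart. Of all genes 11.1%, 9.16% and 7.05% had every flow array above every sham array at 0, 2 and 8 h. For 7.92%, 9.27% and 5.89% every flow array was below. Whether these differences differ between times was not tested, because the gene was chosen on its values.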

How the results depend on the processing

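limma with array weights called 2330, 2312, 3151 and 2361 genes at 0, 2, 8 and 24 h, where 0 were called with equal weights. All probe sets gave 1 at 0 h, centring and the mean of all probe sets gave 1 each at 2 h, and an adjusted p under 0.1 gave 3 at 2 h. Leaving out 1 array gave 0 to 1 genes at 0 h, 0 to 117 at 2 h (117 without sham 2 h replicate 3), 0 to 672 at 8 h (672 without flow 8 h replicate 1 and 301 without sham 8 h replicate 3) and 0 to 278 at 24 h (278 without sham 24 h replicate 3). The single calls at 0 h, up to 3 at 2 h and 2 at 24 h came without flow 8 h replicate 1, other arrays of 8 and 24 h and flow 24 h replicate 1. The other settings called 0. The cause was not tested. With RNA quality covariates the median difference of the 5 genes was 0.67 at 0 h and 0.33 at 24 h, and it moved by less than 1 SD elsewhere (62 of 64 values). Of the differences of single genes 307 stayed within 1 SD of the spread within labels and 13 did not. When 1 array was left out, signs turned for Cxcl10 and Cxcl11 at 0 and 8 h and for Cxcl9 at 8 h. With a replicate block limma called 0 genes at each time. Flow and sham arrays of the same time and number deviated together with r from -0.35 to 0.19. This cannot show whether the samples were paired, since the deviations are from means of 3 arrays and neighbouring columns resembled each other. Arrays with dim signal, such as Ifnb1 below 6, limit what can be read.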
